A study of Mus musculus with 6 samples.

Results

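Interferon-stimulated genes were followed in mouse cortical bone on a diet that damages the kidney. The group comprised 35 genes chosen by symbol: every entry of the deposited comparison whose gene name was on the list, 35 of the 25721 genes in that table. RNA was taken from the cortex of tibiae after the ends were cut off and the marrow was washed out. All mice were wild type, with strain and sex not given in the labels used here. The adenine group received 0.2% adenine by weight from 8 weeks of age for 4 weeks, and the control group received the diet without adenine for the same time, so that bones of both groups were collected at 12 weeks. Adenine forms crystals in the kidney tubules and serves as a model of chronic kidney disease. There were 3 polyA RNA libraries per diet, numbered adenine 1 to 3 and control 1 to 3, and the labels do not say that each came from a separate mouse, so p-values measure the spread between these libraries, which may be technical.

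Interferons are secreted proteins that warn cells of infection or misplaced nucleic acid. Type I interferons act through the receptor subunits Ifnar1 and Ifnar2 and a complex that includes Stat2 and Irf9 and binds the interferon-stimulated response element in target promoters. Interferon gamma acts through Ifngr1 and Ifngr2, and its target promoters often hold another element, the gamma-activated site. In bone, interferon signalling is known to restrain the formation of osteoclasts, the cells that resorb bone. The 35 genes fall into 8 roles: conjugation of ISG15, RNA binding by the IFIT family, oligoadenylate synthesis by the OAS family, other antiviral effectors, transcription factors, nucleic acid sensors, GTPases of the GBP and IRG families, and antigen processing.

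The promoters show what these genes share in sequence. Of the 35 genes, 28 had a promoter entry in RefSeq on the build GRCm38.p6, and the 250 bases before the start were searched on both strands for the core of the response element, GAAANNGAAA, and the core of the gamma-activated site, TTCNNNGAA. The first core was present for 14 of the 28 genes (50%), against 936 of all 27025 genes with a promoter entry (3.46%). The second core was present for 9 of the 28 (32.1%), against 8.13% of all genes. By role, the response element core was found in 5 of 5 GTPase promoters, 3 of 4 IFIT promoters, 2 of 4 OAS promoters and 0 of 3 antigen processing promoters. A match is a description of letters and not a binding site. The last 160 bases before the start are printed for 5 genes whose expression the results turn on, from 5 different roles, 5′ to 3′ along the gene, with every match to the response element core in capitals. A core on the opposite strand appears as its reverse complement.
Isg15 (chr4:156200819-156200978, minus strand): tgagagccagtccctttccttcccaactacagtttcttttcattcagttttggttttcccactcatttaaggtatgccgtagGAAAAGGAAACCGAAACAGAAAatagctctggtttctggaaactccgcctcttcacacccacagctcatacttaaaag
Ifit3 (chr19:34583369-34583528, plus strand): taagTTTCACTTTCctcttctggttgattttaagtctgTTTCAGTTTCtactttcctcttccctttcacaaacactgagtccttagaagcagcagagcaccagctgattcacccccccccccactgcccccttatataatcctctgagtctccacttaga
Oas3 (chr5:120777660-120777819, minus strand): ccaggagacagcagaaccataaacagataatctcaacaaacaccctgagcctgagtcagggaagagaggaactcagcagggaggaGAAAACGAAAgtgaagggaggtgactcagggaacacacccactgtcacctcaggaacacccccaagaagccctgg
Rsad2 (chr12:26456453-26456612, minus strand): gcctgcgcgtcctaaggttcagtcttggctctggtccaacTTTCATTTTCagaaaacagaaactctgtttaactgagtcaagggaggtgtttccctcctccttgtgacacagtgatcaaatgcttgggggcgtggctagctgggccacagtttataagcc
Gbp2 (chr3:142620503-142620662, plus strand): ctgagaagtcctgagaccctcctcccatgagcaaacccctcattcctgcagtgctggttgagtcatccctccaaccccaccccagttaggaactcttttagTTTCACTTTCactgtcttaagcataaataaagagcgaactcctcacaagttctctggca
Isg15 held 3 overlapping cores between 78 and 57 bases before its start. Ifit3 held 2 on the opposite strand, at 156 to 147 and at 122 to 113 bases. Rsad2, Oas3 and Gbp2 held 1 each, and in Gbp2 it lay nearest to the start, at 59 to 50 bases.

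Total counts were 9977694 to 12044459 in the adenine libraries and 10549071 to 14598010 in the control libraries. Levels are given as CPM, read counts scaled to a common library size, and, where genes are compared with each other, as FPKM, which also divides by gene length. The osteocyte gene Dmp1 and the bone matrix gene Col1a1, both from a list of 17 osteocyte and osteoblast markers, were detected in every library. Dmp1 was at 37.6 to 94.6 CPM in adenine libraries and 109 to 163 CPM in control libraries. Col1a1 was at 5807 to 14840 CPM in adenine libraries and 5502 to 6303 CPM in control libraries. Control 3 stood apart in neutrophil and red cell markers, but not in every list of marrow and blood cells. B cell markers summed to 85.4, 155 and 86.7 CPM in control 1 to 3. The 15 neutrophil markers, all of them detected in every library, summed to 4459, 4535 and 6390 CPM in adenine 1 to 3 and to 1917, 4390 and 870 CPM in control 1 to 3. The 9 red cell markers summed to 74150, 55100 and 48720 CPM in adenine 1 to 3 and to 44890, 74100 and 10220 CPM in control 1 to 3. In bulk RNA, fewer cells of a type and less RNA per cell cannot be told apart.

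No change of the 35 genes with the diet passed the test. All 35 passed the filter on low counts and were tested among 15609 genes, and edgeR's quasi-likelihood test with Benjamini-Hochberg adjustment called 0 of the 35 at an adjusted p under 0.05. It also called 0 genes of all those tested (0%), with a smallest adjusted p of 0.169. At an unadjusted p under 0.05, 0 of the 35 were higher, against 4.22% of all genes, and 2 of the 35 (5.71%) were lower, against 6.49% of all genes (10.7% in either direction). The 2 were Gbp2 and Iigp1. The DESeq2 Wald test called 0 of the 35, against 0.642% of all genes higher and 1.29% lower. The log2 fold change of adenine over control was positive for 20 of the 35 (57.1%) and negative for 15, against 50% positive among all genes, with a median of 0.096 for the 35 and of -3.85e-07 for all genes. The diets did not overlap for 3 of the 35 genes: Ifit3, Gbp2 and Iigp1 were lower in every adenine library than in any control library (8.57%, against 8.86% of all genes), and 0 of the 35 were higher in every adenine library (against 7.68%). The shares of lower genes, by either measure, lay close to those of all genes, and the shares of higher genes lay below them.

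**Figure D1:**
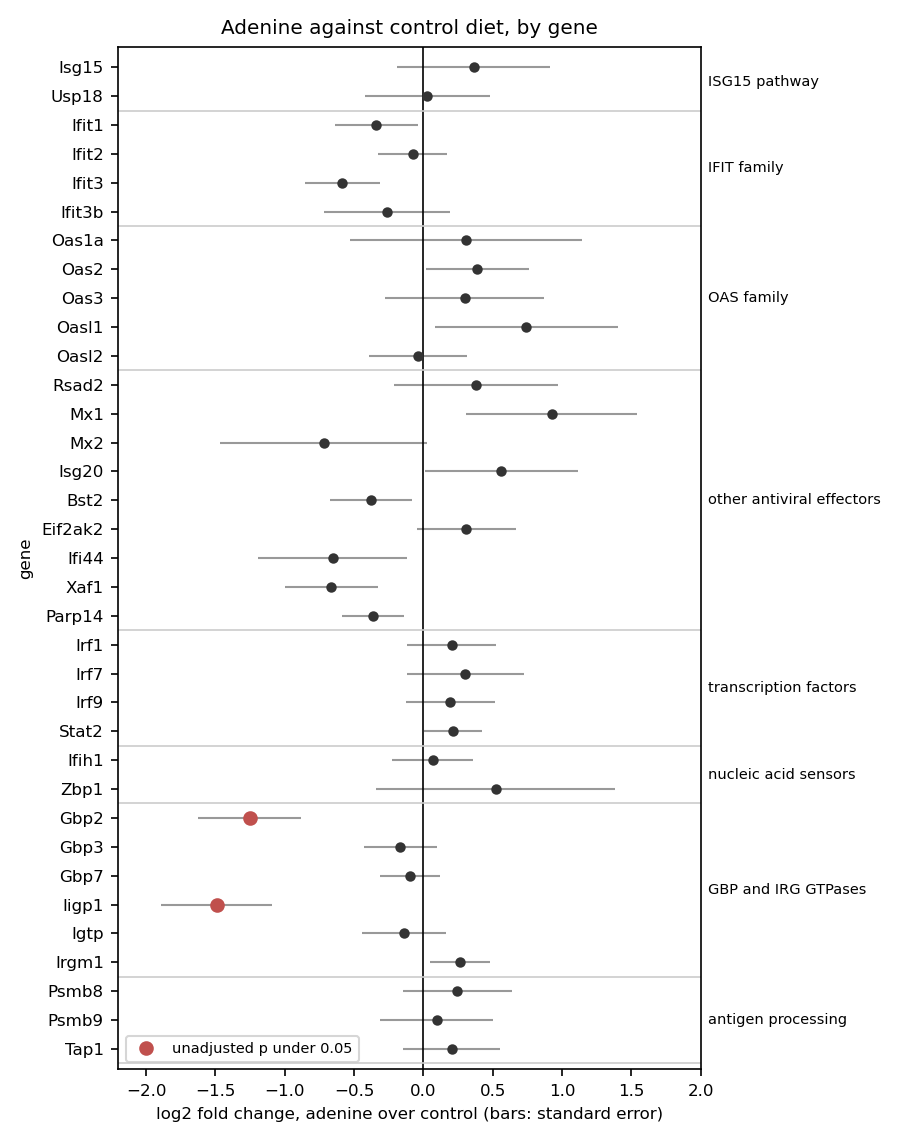
Log2 fold change of each gene, adenine over control, on the horizontal axis, with genes down the page by role and bars for the standard error (SE). Points in red, Gbp2 and Iigp1, had an unadjusted edgeR p under 0.05, and most other bars reach 0 or end near it.

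The control libraries differed widely from each other. Control 3 had the lowest CPM of the 6 libraries for 18 of the 35 genes (51.4%), against 25% of all genes tested. Control 2 had the highest for 16 (45.7%), against 13.7% of all genes. The order control 2 over control 1 over control 3 held for 20 of the 35 (57.1%), against 24.1% of all genes. Taken either way up, the ratio between control 2 and control 3 exceeded the ratio between the diet means for 27 of the 35. The share over all genes was not computed for this ratio. Single libraries tend to differ more than means do, so the count cannot be read as particular to the 35. The 35 genes summed to 1437, 1430 and 1176 CPM in adenine 1 to 3 and to 1160, 1722 and 678 CPM in control 1 to 3. The adenine libraries lay close together, between control 1 and control 2, and control 3 stood below them all. Neutrophil and red cell markers had the same order among the control libraries. Skeletal muscle markers had the reverse order, summing to 63860, 24340 and 106400 CPM in control 1 to 3, and so did endothelial markers, at 1269, 1170 and 1523 CPM. The part of any of these cell types in the order of the 35 genes was not tested. Without control 3, only 10 of the 35 log2 fold changes were positive and the median was -0.083, while without control 2 it was 0.38 and 22 were positive. With the neutrophil level added to the fit as a covariate, a choice made once the data had been seen, 7 of the 35 were positive and the median was -0.28. With the skeletal muscle level as a covariate, 12 of the 35 were positive and the median was -0.22.

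**Figure D2:**
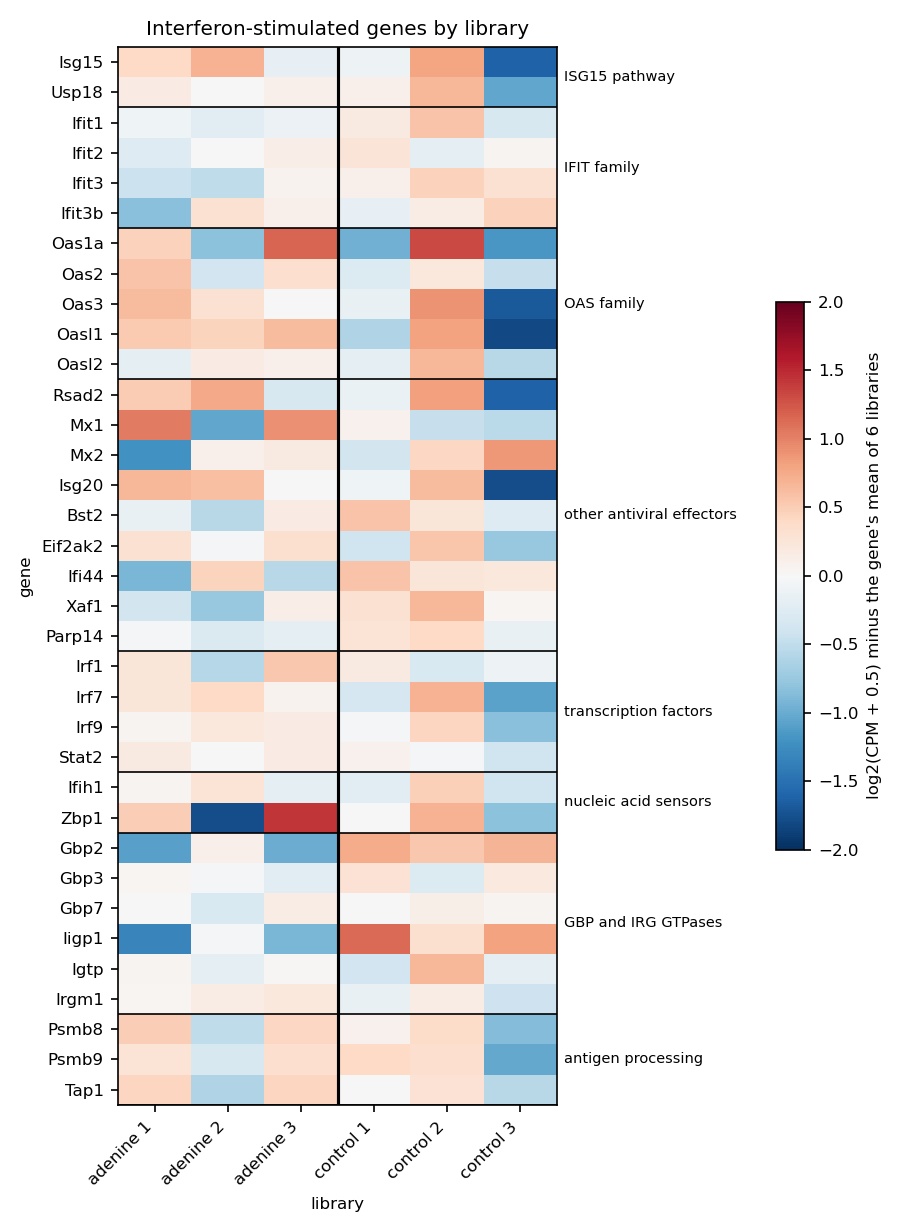
Log2 CPM of each gene in each library, with 0.5 added to the CPM and the gene's mean over the 6 libraries taken away, adenine libraries on the left and control libraries on the right. Control 3 is blue for most of the genes of the ISG15, OAS and antigen processing roles and control 2 red for most of the genes in the upper part, while Gbp2 and Iigp1 are red in all 3 control libraries.

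Per length, 3 genes led the group. Isg15 had a mean of 96.7 FPKM over the 6 libraries, Isg20 of 96.5 and Rsad2 of 65.5, and 7 of the 35 genes reached 10 FPKM while 33 reached 1. Mx2 was lowest, at 0.51 FPKM, followed by Ifi44 at 0.57. Rsad2, Isg20 and Isg15 together made up 49.3%, 54.9% and 36.0% of the summed CPM of the 35 genes in adenine 1 to 3 and 38.5%, 47.5% and 22.4% in control 1 to 3. The share was highest in adenine 2 and lowest in control 3.

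Isg15 encodes a ubiquitin-like protein that is conjugated to other proteins during an interferon response (ENSMUSG00000035692, chromosome 4, 156283912 to 156285253 in the files' coordinates, on a build not given in the sources used here). It was at 83.0, 102 and 55.6 CPM in adenine 1 to 3 and at 58.6, 108 and 20.1 CPM in control 1 to 3. The adenine values lay inside the control range, whose ends were control 3 and control 2. The means were 80.1 ± 23.2 CPM on the adenine diet and 62.3 ± 44.1 CPM on the control diet (SD, n = 3 each). The log2 fold change was 0.36 (SE 0.55, edgeR adjusted p = 0.800), and it was -0.035 without control 3 and 1.02 without control 2. Usp18, the protease that removes ISG15 and restrains signalling from the type I receptor, averaged 10.3 ± 0.581 CPM on the adenine diet and 10.1 ± 5.59 CPM on the control diet (SD, n = 3 each), with a log2 fold change of 0.027. Its control values, from 4.41 CPM in control 3 to 15.6 CPM in control 2, spanned those of all adenine libraries.

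The IFIT family, whose proteins bind viral RNA and block its translation, had negative log2 fold changes in 4 of 4 genes, from -0.58 to -0.077, with 0 at an unadjusted p under 0.05. Ifit3 (ENSMUSG00000074896, chromosome 19, 34560931 to 34566131 in the files' coordinates) had the largest. It was at 10.5, 9.98 and 15.1 CPM in adenine 1 to 3 and at 15.6, 20.0 and 17.9 CPM in control 1 to 3. The diets did not overlap, and adenine 3 came close to control 1. The log2 fold change was -0.58 (SE 0.27, edgeR unadjusted p = 0.0666, adjusted p = 0.495). Ifit3 and its close copy Ifit3b share long stretches of sequence, so counts may be split between them in a way that is not known. Ifit3b had a log2 fold change of -0.26 and Ifit1 of -0.34, and both overlapped between the diets. Ifit2, at -0.077, was nearest to 0.

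The OAS family makes the oligoadenylates that switch on RNase L, and all 5 of its genes were lowest in control 3. Oas3, at the highest FPKM of the family, was at 45.8, 36.1 and 29.1 CPM in adenine 1 to 3 and at 26.4, 55.2 and 8.81 CPM in control 1 to 3. Oasl1, known in mice as a brake on the translation of Irf7, was at 9.70, 9.14 and 10.4 CPM in adenine 1 to 3 and at 4.16, 11.9 and 1.52 CPM in control 1 to 3. The adenine values of Oasl1 differed little from each other, while control 2 exceeded control 3 by 7.82-fold. The log2 fold change was 0.30 for Oas3 (SE 0.58, edgeR adjusted p = 0.849) and 0.74 for Oasl1 (SE 0.66, edgeR adjusted p = 0.673). For Oasl1 it was 0.31 without control 3 and 1.77 without control 2. Oas1a, Oas2 and Oasl2 had log2 fold changes of 0.30, 0.39 and -0.039. Oas1a ranged from 3.15 to 14.0 CPM in adenine libraries and from 2.36 to 15.6 CPM in control libraries, nearly the same span.

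Of the 9 other antiviral effectors, 4 had positive and 5 negative log2 fold changes, and 0 had an unadjusted p under 0.05. Isg20, an RNA exonuclease, was at 259, 248 and 163 CPM in adenine 1 to 3 and at 154, 253 and 47.5 CPM in control 1 to 3. Rsad2, which encodes viperin and is named here after its values were seen, was at 366, 436 and 206 CPM in adenine 1 to 3 and at 235, 456 and 84.1 CPM in control 1 to 3. Both genes were about as high in control 2 as in the highest adenine library, and both were lowest in control 3. The log2 fold change was 0.56 for Isg20 (SE 0.55, edgeR adjusted p = 0.697) and 0.38 for Rsad2 (SE 0.59, edgeR adjusted p = 0.806). For Isg20 it was 0.16 without control 3 and 1.15 without control 2. Xaf1, a partner of an inhibitor of cell death, had the smallest p of the role. It was at 9.89, 7.46 and 14.3 CPM in adenine 1 to 3 and at 16.1, 20.9 and 13.3 CPM in control 1 to 3, a log2 fold change of -0.66 (SE 0.33, edgeR unadjusted p = 0.0830, adjusted p = 0.515). Only adenine 3 and control 3 overlapped. Mx1, a dynamin-like antiviral GTPase, had a log2 fold change of 0.92 and its relative Mx2 of -0.72, and both overlapped between the diets. The ADP-ribosyltransferase Parp14 and Bst2, the tether that holds budding virus at the cell surface, had log2 fold changes of -0.36 and -0.38. Ifi44 had -0.66 and Eif2ak2, the kinase PKR that halts translation on double-stranded RNA, had 0.31, which was 0.077 without control 3 and 0.79 without control 2.

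**Figure D3:**
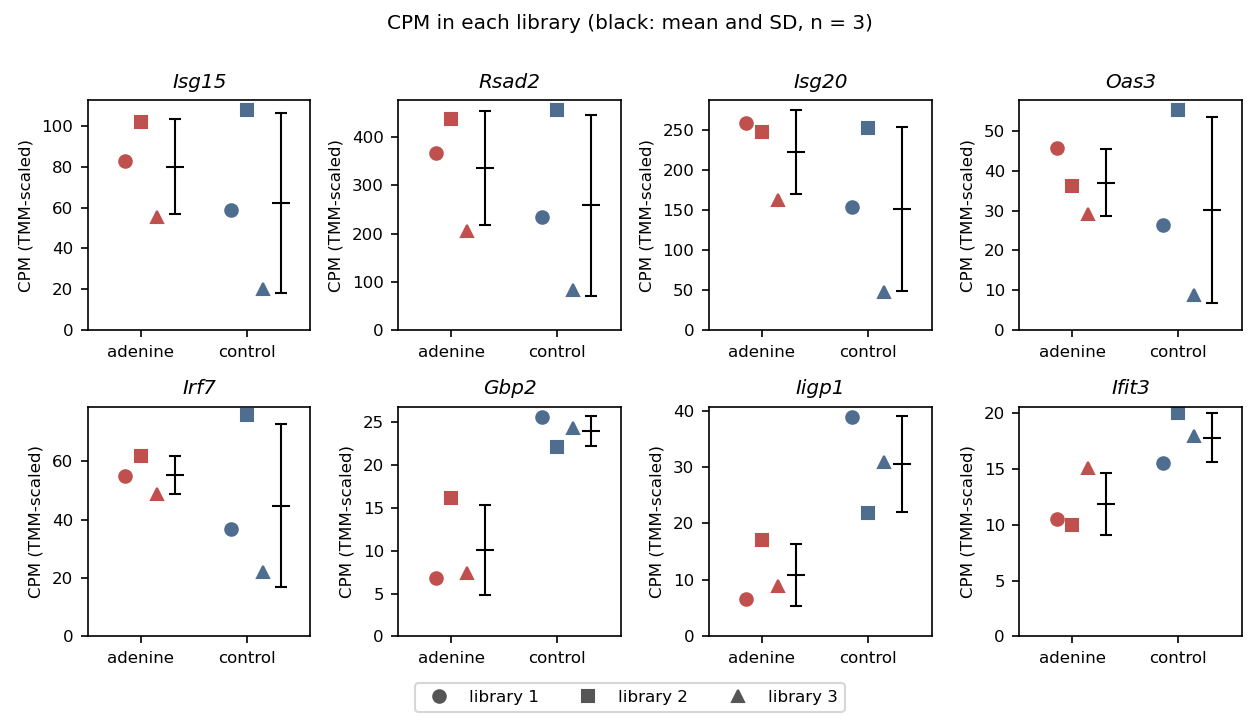
CPM of 8 genes in each library, adenine libraries to the left of control libraries, with marker shape for the library number and black bars for the mean and SD (n = 3). Isg15, Rsad2, Isg20, Oas3 and Irf7 span a wide range among the control libraries with control 3 lowest, while Gbp2, Iigp1 and Ifit3 do not overlap between the diets.

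The transcription factors of the response had positive log2 fold changes in 4 of 4 genes, from 0.19 to 0.30, with 0 at an unadjusted p under 0.05. Irf7, the main inducer of interferon alpha genes, was at 54.9, 61.8 and 48.8 CPM in adenine 1 to 3 and at 36.8, 75.7 and 22.0 CPM in control 1 to 3. The adenine values lay between control 1 and control 2. Stat2 was at 41.4, 36.3 and 40.8 CPM in adenine 1 to 3 and at 38.8, 35.8 and 27.7 CPM in control 1 to 3, and its log2 fold change of 0.21 had a standard error of 0.21 (edgeR adjusted p = 0.701). Irf9, the DNA-binding partner of Stat2, averaged 68.4 ± 3.78 CPM on the adenine diet and 59.8 ± 24.8 CPM on the control diet (SD, n = 3 each), with a log2 fold change of 0.19. Irf1, which responds to interferon gamma above all, had 0.20. In the files' coordinates Irf7 overlaps Phrf1 on the opposite strand and Irf9 overlaps Rnf31 on the same strand, and reads may be shared, as the strand setting of the counting was not stated in the sources.

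Among the nucleic acid sensors, Ifih1, which detects long double-stranded RNA, was at 27.2, 31.7 and 22.9 CPM in adenine 1 to 3 and at 22.2, 36.4 and 19.6 CPM in control 1 to 3. The adenine values lay inside the control range, and the log2 fold change was 0.065 (SE 0.29, edgeR adjusted p = 0.937). Zbp1, a sensor of Z-form nucleic acid that can start cell death, was at 5.45, 0.735 and 10.9 CPM in adenine 1 to 3 and at 3.73, 6.34 and 1.90 CPM in control 1 to 3. Here the adenine libraries spread 14.8-fold, with adenine 2 at the bottom, and the log2 fold change was 0.52 (SE 0.86).

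Gbp2 and Iigp1, GTPases that attack the vacuoles in which bacteria and parasites live, were the only 2 of the 35 genes with an unadjusted p under 0.05, and both were lower on the adenine diet. Gbp2 (ENSMUSG00000028270, chromosome 3, 142326363 to 142343769 in the files' coordinates) was at 6.84, 16.2 and 7.36 CPM in adenine 1 to 3 and at 25.7, 22.2 and 24.3 CPM in control 1 to 3. Iigp1 (ENSMUSG00000054072, chromosome 18) was at 6.65, 17.0 and 9.01 CPM in adenine 1 to 3 and at 38.8, 21.9 and 30.8 CPM in control 1 to 3. In both genes every adenine library was below every control library, and adenine 2 was the adenine library nearest to the controls. The means were 10.1 ± 5.24 CPM on the adenine diet and 24.1 ± 1.75 CPM on the control diet for Gbp2, and 10.9 ± 5.43 CPM on the adenine diet and 30.5 ± 8.46 CPM on the control diet for Iigp1 (SD, n = 3 each). The log2 fold change was -1.25 for Gbp2 (SE 0.37, edgeR unadjusted p = 0.0106, adjusted p = 0.335) and -1.49 for Iigp1 (SE 0.40, edgeR unadjusted p = 0.00650, adjusted p = 0.289). In the authors' deposited table the adjusted p was 0.138 for Gbp2 and 0.0561 for Iigp1. Without adenine 2, a fit that called 334 of 16470 genes tested, both passed. The log2 fold changes were then -1.77 for Gbp2 (edgeR adjusted p = 0.0416) and -1.97 for Iigp1 (edgeR adjusted p = 0.0473). In that fit 14.1% of all genes were lower at an unadjusted edgeR p under 0.05, against 6.49% with all 6 libraries. Over all alternatives the adjusted p ranged from 0.0416 to 1 for Gbp2 and from 0.0473 to 1 for Iigp1.

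Endothelial markers were lower in the same libraries as these 2 genes. All 13 were tested and none was at 0, all 13 had negative log2 fold changes, 10 of the 13 had an unadjusted edgeR p under 0.05, and the DESeq2 Wald test called 5 of them lower. They summed to 539, 876 and 523 CPM in adenine 1 to 3 and to 1269, 1170 and 1523 CPM in control 1 to 3, so adenine 2 was again the adenine library nearest to the controls. With the endothelial level in the fit, again a choice made with the data known, the log2 fold change was 0.16 for Gbp2 (SE 0.54) and -0.019 for Iigp1 (SE 0.64). The endothelial level itself did not overlap between the diets, so the covariate and the diet cannot be told apart. Macrophage markers were higher: 12 of 15 were tested, all 12 had positive log2 fold changes, and they summed to 529, 399 and 739 CPM in adenine 1 to 3 and to 266, 267 and 254 CPM in control 1 to 3, with Timd4 at 0 in the adenine libraries. With the macrophage level in the fit, also chosen with the data known, the log2 fold change was -0.35 for Gbp2 and -0.74 for Iigp1. The macrophage level did not overlap between the diets either, so it cannot be told apart from the diet. Bone cell lists differed as well. All 14 osteoclast markers had positive log2 fold changes, 11 had an unadjusted edgeR p under 0.05, and the DESeq2 Wald test called 8. Of 17 osteocyte and osteoblast markers, 8 had positive and 9 negative values, with 1 higher and 7 lower at an unadjusted edgeR p under 0.05. Neither level was used as a covariate. Kidney tubule markers summed to 3880, 1898 and 1020 CPM in adenine 1 to 3 and to 1286, 1204 and 945 CPM in control 1 to 3. With that level as a covariate the log2 fold change was -1.21 for Gbp2 (SE 0.58, edgeR unadjusted p = 0.0774). For Iigp1 it was -1.38 (SE 0.60, edgeR unadjusted p = 0.0583). Both values moved little, while their standard errors were larger than without the covariate. Skeletal muscle markers summed to 3648, 95380 and 7444 CPM in adenine 1 to 3 and to 63860, 24340 and 106400 CPM in control 1 to 3. Adenine 2 was the adenine library with the most muscle RNA, and control 2, the lowest control library for Gbp2 and Iigp1, was the control library with the least. With the muscle level as a covariate the log2 fold change was -0.88 for Gbp2 (SE 0.29, edgeR unadjusted p = 0.0147) and -1.001 for Iigp1 (SE 0.30, edgeR unadjusted p = 0.00780), smaller in size than without it.

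The other 4 GTPases of the group had log2 fold changes between -0.17 and 0.26, with 0 at an unadjusted p under 0.05. Igtp, at the highest FPKM of the role, was at 42.8, 36.0 and 41.7 CPM in adenine 1 to 3 and at 31.2, 65.2 and 36.3 CPM in control 1 to 3, with a log2 fold change of -0.14 and a standard error of 0.30 (edgeR adjusted p = 0.867). Gbp3 and Gbp7 had log2 fold changes of -0.17 and -0.096, and Irgm1 of 0.26. All 3 overlapped between the diets. The response element core printed for Gbp2 was also present in the promoters of Gbp3, Gbp7, Igtp and Irgm1, so the letters did not separate Gbp2 from genes with fold changes near 0. Igtp overlaps Irgm2 on the same strand in the files' coordinates.

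The list of further interferon-stimulated genes holds 11 more GTPases of these families, a grouping made after their values were seen. Of these, 9 were tested, all 9 had negative log2 fold changes (against 50% of all genes), and 4 had an unadjusted p under 0.05 (against 6.49% of all genes lower) and did not overlap between the diets (against 8.86%). Gbp5 was at 4.53, 5.57 and 2.78 CPM in adenine 1 to 3 and at 11.5, 11.5 and 12.3 CPM in control 1 to 3, with a log2 fold change of -1.46. Gbp4 was at 10.2, 15.2 and 8.03 CPM in adenine 1 to 3 and at 28.2, 23.4 and 29.6 CPM in control 1 to 3, with a log2 fold change of -1.28. Tgtp1, an IRG family GTPase, had 9, 4 and 1 reads in adenine 1 to 3 and 73, 23 and 71 reads in control 1 to 3. The DESeq2 Wald test called Tgtp1 (adjusted p = 0.0210) and edgeR did not (adjusted p = 0.289), and its near-identical copy Tgtp2 had a log2 fold change of -0.83 with overlapping diets. Ifi47, another IRG family GTPase, had a log2 fold change of -0.51 with overlapping diets. Over both sets, 14 of 15 tested GTPases had negative values and 6 had an unadjusted p under 0.05. In the files' coordinates Gbp4, Gbp8 and Gbp9 overlap each other on the same strand, as Irgm2 and Igtp do. Reads may be shared or left out there, so these genes are not independent of each other in the counts.

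**Figure D4:**
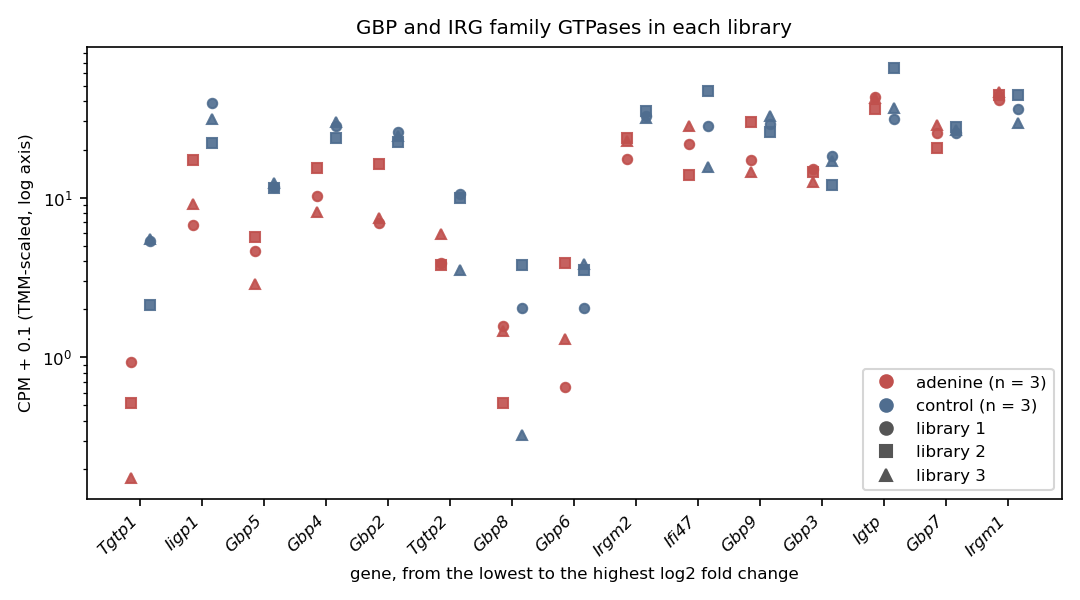
CPM, with 0.1 added, of the 15 tested GBP and IRG family GTPases on a log axis, adenine libraries to the left of control libraries for each gene, with marker shape for the library number. The diets do not overlap for Tgtp1, Iigp1, Gbp5, Gbp4, Gbp2 and Irgm2, and they overlap for the other 9 genes.

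Antigen processing genes had log2 fold changes of 0.096 to 0.25. Psmb8, a catalytic subunit of the immunoproteasome, was at 37.3, 18.4 and 35.3 CPM in adenine 1 to 3 and at 28.2, 34.3 and 14.3 CPM in control 1 to 3. Adenine 2 and control 3 were low in both Psmb8 and Tap1, the peptide transporter of the endoplasmic reticulum. Psmb8 had a log2 fold change of 0.25 (SE 0.40, edgeR adjusted p = 0.814), Tap1 of 0.20 and the subunit Psmb9 of 0.096. Psmb9 overlaps Tap1 on the opposite strand in the files' coordinates.

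**Figure D5:**
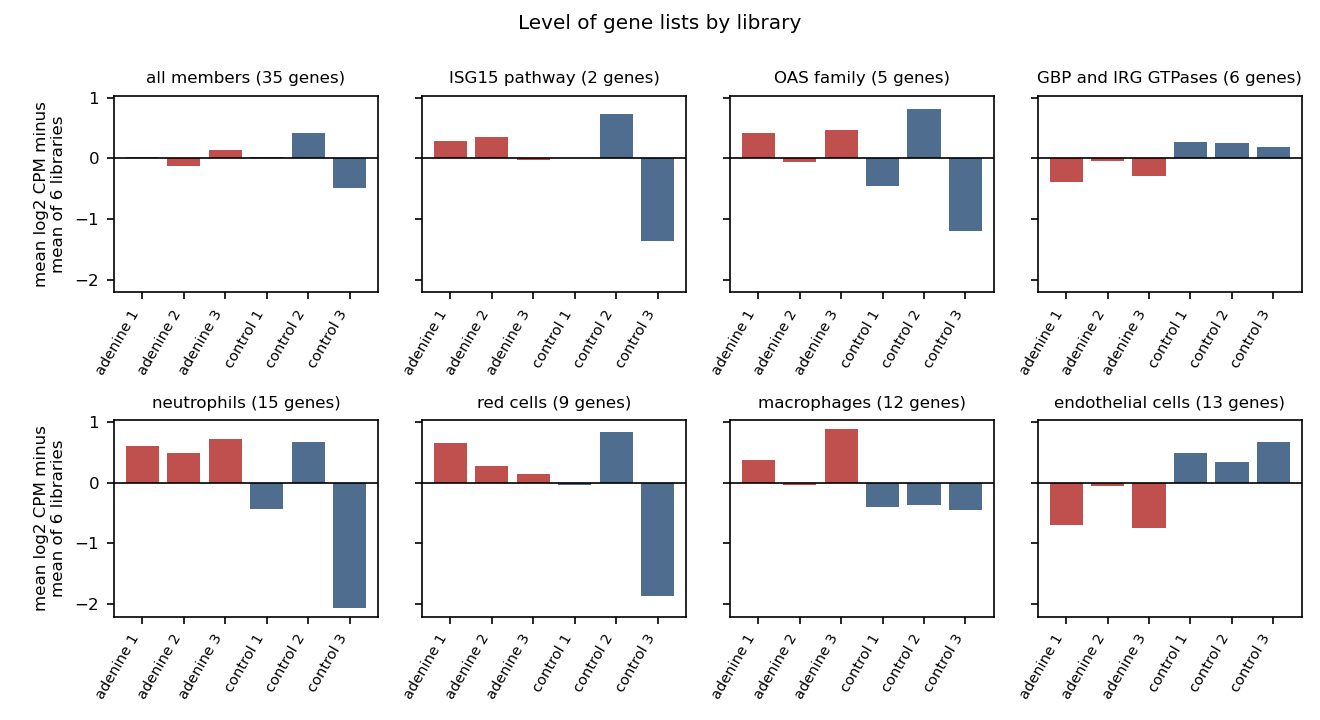
Level of 4 sets of interferon-stimulated genes and 4 cell type marker lists in each library, as the mean log2 CPM of the list minus its mean over the 6 libraries, adenine libraries on the left. Neutrophil and red cell bars drop in control 3 as the ISG15 and OAS bars do, while the GTPase bars are negative in all adenine libraries and positive in all control libraries, as are the endothelial bars. The adenine 2 bars lie near 0, at -0.049 for the GTPases and -0.054 for the endothelial list. The GTPase level includes Gbp2 and Iigp1, the 2 genes with an unadjusted edgeR p under 0.05.

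Transcripts of the interferons themselves were hardly seen. Of 21 interferon genes looked for, 19 were listed at 0 FPKM in all 6 libraries, among them Ifnb1 and every interferon alpha gene of the list. Ifng was listed at 0 in all adenine libraries and above 0 in control 2 alone, at 0.0637 FPKM, and Ifnz had 2 reads in adenine 1. Of the 21, only 1 (Ifnz) had deposited read counts, so the zeros of the others are FPKM values. Taken as a count of 0, such a value allows up to 3 reads, for counting error only. That is 0.249 to 0.301 CPM without scaling in adenine libraries and 0.206 to 0.284 CPM in control libraries. The receptors were present: Ifnar1 was at 36.4 to 57.6 CPM in adenine libraries and at 41.6 to 56.6 CPM in control libraries, with a log2 fold change of 0.011. Ifnar2, Ifngr1 and Ifngr2 had log2 fold changes of 0.31, 0.25 and -0.37. Of the 10 receptor and kinase genes, 0 had an unadjusted p under 0.05, the smallest p being that of Il10rb, at a log2 fold change of 0.39, followed by Ifngr2.

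Genes that act before or around the response were counted by list. Of 17 tested sensors and adaptors that induce interferon, 14 had positive log2 fold changes and 4 were higher at an unadjusted p under 0.05, against 4.22% of all genes. The endosomal RNA sensor Tlr7 was at 7.76, 6.72 and 13.6 CPM in adenine 1 to 3 and at 1.43, 2.99 and 2.28 CPM in control 1 to 3, a log2 fold change of 2.07 (SE 0.47). Every adenine library was above every control library, and the DESeq2 Wald test called the gene (adjusted p = 0.0148) while edgeR did not (adjusted p = 0.244). Sting1, the adaptor for cytosolic DNA, followed with a log2 fold change of 0.69. Both are known to be expressed in macrophages, and the macrophage markers given above were higher in the same libraries. With the macrophage level as a covariate the log2 fold change was 1.07 for Tlr7 and 0.52 for Sting1. That level did not overlap between the diets, so the covariate and the diet cannot be told apart. The part of macrophages in these values was not tested. Of 9 tested feedback inhibitors, Socs3, which blocks cytokine receptor kinases, had the smallest p, at a log2 fold change of 0.73, and was the only one at an unadjusted p under 0.05. The nucleotide phosphatase Samhd1 followed at 0.56. Of 71 tested further interferon-stimulated genes, 39 had positive and 32 negative log2 fold changes. At an unadjusted p under 0.05, 3 were higher and 7 lower, against 4.22% and 6.49% of all genes. The 2 with the smallest p were Gbp4 and Phf11d, which had a log2 fold change of -1.12 and did not overlap between the diets. Over all 107 tested genes of these lists, 8 (7.48%) were higher and 7 (6.54%) lower at an unadjusted p under 0.05, against 4.22% and 6.49% of all genes, and edgeR called 0 after adjustment.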

How the data were processed

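PolyA RNA-seq libraries of flushed tibia cortex were assigned to a diet by their labels, 3 to each. The submitters' processing notes give tools but no roles: featureCounts 1.5.0-p3, HISAT2 2.0.5, edgeR 3.22.5 and DESeq2, the last unversioned. Per the labels, libraries were either directional or non-directional. The genome build, the annotation and the strand setting were not given in the sources used here. The authors deposited raw read counts per gene, a normalized signal (the counts divided by 1 size factor per library, as checked on the values, and not used further), FPKM, and their own log2 fold changes and p-values. An own DESeq2 fit gave log2 fold changes within 6.47e-05 of the deposited ones and the same 361 calls. The 35 genes and all gene lists were chosen with earlier results of these data known.

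The deposited counts entered edgeR's quasi-likelihood test (version 4.0.16 under R 4.3.3; TMM scaling, filterByExpr with a minimum count of 10, robust moderation, diet as the only term, two-sided), with Benjamini-Hochberg adjustment over the 15609 genes tested and a threshold of 0.05. Standard errors (SE) are the size of the log2 fold change over the root of F. With 3 libraries per diet the biological coefficient of variation was 0.439, and an exact permutation test of a single value cannot go below p = 0.1. Spearman correlations of log2 CPM between libraries were 0.900 to 0.956 within the adenine group, 0.908 to 0.959 within the control group and 0.815 to 0.954 between them. As alternatives served the Wald test of DESeq2 1.42.0, its size factors within edgeR, limma-trend (limma 3.58.1) on log2(FPKM + 1) for genes averaging 1 FPKM or more, no filter, a minimum count of 50, no robust moderation, the replicate number as a block, each library left out, control 3 and adenine 1 left out together, and the level of muscle or kidney tubule markers as a covariate. The levels of neutrophil, endothelial and macrophage markers as covariates, and all alternatives for the pathway genes outside the 35, were added after seeing the data.

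Values in each library are given for the gene with the highest mean FPKM and the gene with the smallest p in each role, and for any gene at an unadjusted p under 0.05. The 2 genes with the smallest p of each pathway list are named, and the receptor subunits, Ifnb1 and Ifng whatever their values. A gene that this rule also names is not reported here, though it stays in the counts. Where a symbol had more than 1 entry, the entry with the higher mean was used. The code of the test was checked on simulated counts with known fold changes. Recovery of changed genes was required only at a smaller spread between libraries than in these data. The check thus does not show how often the test would find a change here.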

Additional observations from a re-analysis of the deposited data

How the results depend on the processing

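The count of genes passing edgeR's adjustment over all genes was 361 with the DESeq2 Wald test, 66 with no filter on low counts, 1 with limma-trend on FPKM, 1 with the muscle level as a covariate, and 0 to 334 when each library was left out, the 334 without adenine 2. None of the 35 genes passed under any alternative except Gbp2 and Iigp1 without adenine 2. Leaving out each library gave 323 (without adenine 1) to 1430 (without control 2) genes higher and 528 (without control 3) to 2326 (without adenine 2) lower at an unadjusted p under 0.05, and among the 35 it gave 0 to 4 higher (4 without control 2: Eif2ak2, Irf7, Oas1a and Oasl1) and 2 to 4 lower (Ifit3 and Xaf1 joined Gbp2 and Iigp1 without adenine 3; Ifi44 joined them without adenine 2, where Mx1 was higher). Pathway genes outside the 35 that were higher numbered 2 (without adenine 1) to 15 (without control 2). DESeq2 size factors, no robust moderation, no filter and a minimum count of 50 changed no direction.

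Same-numbered libraries deviated from their group means with correlations of -0.039, -0.45 and -0.17. Libraries with different numbers gave -0.33 to 0.39. The numbers thus showed no pairing of the samples, though so few values cannot exclude one. With the replicate block, 399 genes were higher and 587 lower, pathway genes numbered 4 higher and 4 lower, Gbp2 and Iigp1 kept an unadjusted p under 0.05, and Oasl2 turned to 0.047 and Ifnar1 to -0.0051. Limma-trend gave Oasl2 0.054, and the DESeq2 Wald test 5 pathway genes higher.

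The cause of the following moves was not tested. Values are log2 fold changes that changed sign, and counts are at an unadjusted p under 0.05. When each library was left out, the ranges were Isg15 -0.035 to 1.02, Usp18 -0.32 to 0.48, Ifit2 -0.19 to 0.045, Ifit3b -0.52 to 0.035, Oas1a -0.26 to 1.72, Oas3 -0.12 to 1.07, Oasl2 -0.26 to 0.39, Rsad2 -0.017 to 1.07, Irf1 -0.051 to 0.45, Irf7 -0.0054 to 0.91, Irf9 -0.070 to 0.51, Ifih1 -0.085 to 0.38, Zbp1 -0.36 to 1.04, Gbp7 -0.21 to 0.017, Igtp -0.32 to 0.25, Psmb8 -0.032 to 0.51, Psmb9 -0.24 to 0.35, Ifnar1 -0.11 to 0.19 and Ifngr1 -0.12 to 0.47. Without control 3 and adenine 1 together, 223 genes were higher, 368 lower, 1 of the 35 lower (Iigp1) and 2 pathway genes higher, and the values were Isg15 -0.085, Usp18 -0.37, Ifit2 0.027, Ifit3b 0.22, Oas1a -0.091, Oas3 -0.32, Rsad2 -0.11, Mx2 0.092, Irf7 -0.025, Irf9 -0.042, Ifih1 -0.10, Psmb8 -0.22, Psmb9 -0.32, Tap1 -0.16 and Ifnar1 -0.18.

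With the muscle level as a covariate, 12 of the 35 values were positive, 12 changed sign, the median over the 35 was -0.22, 3 pathway genes were higher, and the values were Usp18 -0.22, Ifit2 0.033, Ifit3b 0.038, Oas1a -0.71, Oas2 -0.12, Mx1 -0.28, Eif2ak2 -0.0015, Irf1 -0.17, Zbp1 -1.38, Psmb8 -0.33, Psmb9 -0.30, Tap1 -0.37, Ifnar1 -0.32 and Ifngr1 -0.075. With the kidney tubule level, 287 genes were higher, 427 lower, 0 of the 35 lower and 4 pathway genes higher, and the values were Usp18 -0.0039, Ifit2 0.057, Ifit3b 0.25, Oas3 -0.0006, Oasl2 0.14, Mx2 0.23 and Ifih1 -0.0078.

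The 3 covariates chosen after seeing the data changed the sign of 17, 21 and 12 of the 35. With the neutrophil level, 330 genes were higher, 441 lower, 5 of the 35 lower and 3 pathway genes higher, with a median of -0.28 over the 35, and the values were Isg15 -0.35, Usp18 -0.61, Ifit2 0.0075, Oas1a -0.52, Oas3 -0.48, Oasl1 -0.095, Rsad2 -0.32, Isg20 -0.18, Eif2ak2 -0.17, Irf7 -0.27, Irf9 -0.28, Ifih1 -0.25, Zbp1 -0.22, Gbp3 0.041, Psmb8 -0.27, Psmb9 -0.49, Tap1 -0.17, Ifnar1 -0.20 and Ifnar2 -0.046. With the endothelial level, 1025 genes were higher, 658 lower, 6 of the 35 lower, 0 pathway genes higher and 12 lower, with a median of -0.63, and the values were Usp18 -0.85, Ifit2 0.056, Ifit3b 0.62, Oas1a -3.30, Oas2 -1.05, Oas3 -0.67, Oasl1 -0.47, Mx1 -2.32, Mx2 0.19, Eif2ak2 -0.70, Ifi44 0.83, Irf1 -1.06, Irf7 -0.11, Irf9 -0.23, Stat2 -0.19, Zbp1 -5.17, Gbp2 0.16, Gbp3 0.14, Psmb8 -1.57, Psmb9 -1.29, Tap1 -1.56, Ifnar1 -1.01, Ifnar2 -0.61, Ifngr1 -0.84, Il10rb -0.66 and Samhd1 -0.47. With the macrophage level, 269 genes were higher, 349 lower, 0 pathway genes higher and 1 lower, with a median of -0.29, and the values were Usp18 -0.17, Oas1a -1.93, Oas2 -0.29, Mx1 -0.999, Eif2ak2 -0.085, Ifi44 0.23, Irf1 -0.82, Zbp1 -3.31, Gbp3 0.047, Psmb8 -0.66, Psmb9 -0.59, Tap1 -0.78, Ifnar1 -0.60, Ifnar2 -0.10, Ifngr1 -0.83, Il10rb -0.52 and Samhd1 -0.046. Endothelial and macrophage levels do not overlap between the diets, so these covariates and the diet cannot be told apart.

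With 3 libraries per diet and control libraries that spread widely, values that miss the threshold do not show that the diets are alike. Interferon transcripts below the limits given for a count of 0 would not be seen.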

Other observations

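For 22 of the 35 genes, the ratio of the highest to the lowest CPM was smaller in adenine than in control libraries. The share over all genes was not computed, so the count cannot be read as particular to these genes. Zbp1 went the other way, with a ratio of 14.8 in adenine libraries and 3.34 in control libraries. So did Mx1, with 5.09 in adenine libraries and 1.64 in control libraries. For both, adenine 2 was the lowest library. Adenine 2 was the highest library for 0 of the 35 genes (against 13.1% of all genes tested) and the lowest for 9 (25.7%, against 14%), and adenine 3 was the lowest for 0 (against 15.2%).

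Siglech, a marker of plasmacytoid dendritic cells, which are known as strong producers of type I interferon, was at 3.33, 0.105 and 3.60 CPM in adenine 1 to 3 and at 5.45, 4.84 and 1.44 CPM in control 1 to 3. Of the 9 markers listed for these cells, 8 were tested, 2 with positive and 6 with negative log2 fold changes. At an unadjusted edgeR p under 0.05 there were 0 of them in either direction, so Siglech alone does not stand for the list.

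Among the further interferon-stimulated genes, Slfn2, a Schlafen family gene, was at 82.4, 56.4 and 108.7 CPM in adenine 1 to 3 and at 27.8, 51.2 and 20.7 CPM in control 1 to 3, with a log2 fold change of 1.31. Its relative Slfn1 had 1.02 and the membrane protein gene Ifitm1 0.94, while Slfn5 had -0.57. These 4 genes are named after their values were seen. All had an unadjusted edgeR p under 0.05, and the smallest adjusted p was 0.340. Slfn2, Slfn1 and Ifitm1 were the only 3 of the 71 tested genes of this list that were higher at that p. Among all genes tested, 4.22% were higher. The relatives Slfn4, Slfn8, Slfn9, Ifitm2 and Ifitm3 did not reach an unadjusted edgeR p under 0.05.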
